A study of Mus musculus with 27 samples.

Results

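The nuclear-encoded genes of the mitochondrial respiratory chain were followed across 27 arrays of embryonic mouse hearts at stage E11.5. They were taken as every gene whose single platform symbol starts with Nduf, Uqcr, Cox4, Cox5, Cox6b, Cox6c, Cox7b, Cox7c or Atp5, together with Sdha, Sdhb, Sdhc, Sdhd, Cyc1 and Cycs, each read at its brightest probe set. The rule gave 83 genes of the 19935 measured, and no other gene list below was used to choose them. By role they comprise 34 subunits of complex I (6 core and 28 accessory), 7 complex I assembly factors of the Ndufaf family, 4 subunits of complex II, 9 of complex III, cytochrome c itself, 11 of complex IV and 17 of the ATP synthase, complex V. Another 6 probe sets carry several symbols that include one of these (copies of Cox7c, Ndufb4 and Ndufs5) and were not used.

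The respiratory chain sits in the inner mitochondrial membrane. Complexes I and II feed electrons from NADH and succinate to ubiquinone, complex III passes them to cytochrome c, and complex IV hands them to oxygen. Complexes I, III and IV pump protons as they do so, and complex V uses the returning protons to make ATP. Most subunits are encoded in the nucleus, and working heart muscle is rich in them.

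All hearts were of the C57Bl/6/BLKSW mix. The 6 groups were Nkx2-5+/- Brg1+/- (3 arrays), Nkx2-5+/- (4), Brg1+/- (6), Tbx5+/- Brg1+/- (3), Tbx5+/- (5) and wild type (6). Brg1, encoded by Smarca4, is an ATPase subunit of BAF chromatin remodelling complexes, while Nkx2-5 and Tbx5 encode DNA-binding regulators of cardiac development. The comparisons ask how heterozygous loss of each gene, alone or with a second one, changes heart gene expression. Which part of each gene was removed is not stated in the labels, nor whether an array held 1 heart or a pool. The unit behind the p-values is the array. These p-values rest on each gene's spread between arrays, pooled over all 6 groups and drawn towards a value shared by all genes. In whole hearts, fewer cells of a type and less RNA per cell cannot be told apart.

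The signals are RMA values on a log2 scale, with array medians between 6.181 and 6.328. Smarca4 had means of 9.45 in Nkx2-5+/- Brg1+/-, 9.32 in Brg1+/- and 9.72 in Tbx5+/- Brg1+/- hearts, against 10.07 in wild type. On a pair of arrays the targeted genes did not match the label: the array labelled Nkx2-5+/- replicate 3 had 9.57 for Smarca4, where the other Nkx2-5+/- arrays had 9.89 to 10.08, and the array labelled Tbx5+/- Brg1+/- replicate 3 had 10.01, where the others of its group had 9.51 and 9.64. The array labelled Nkx2-5+/- replicate 3 also had more Nkx2-5 signal, 9.40 against 8.48 to 8.63 on the others of its group. Nkx2-5 values of the other genotype groups are not given here, so whether 9.40 is a wild-type level is left unstated. Counts of calls, and single genes whose call changes, are given with and without this pair of arrays. Tbx5 was not lower in Tbx5+/- hearts, with 8.80 ± 0.17 (SD, n = 5) against 8.57 ± 0.20 (n = 6) in wild type, so this probe set does not check that label. Heart muscle was well represented on every array, with a mean log2 signal over 26 sarcomere genes of at least 10.45.

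To show the promoters of the genes the results turn on, the 5 that fell in Nkx2-5+/- hearts and whose start region holds at least 1 searched motif are printed, from 250 bases before to 50 after the RefSeq start (GRCm38.p6, gene strand). Capitals mark the matches.
Sdhd, chr9:50603800-50604099, minus strand: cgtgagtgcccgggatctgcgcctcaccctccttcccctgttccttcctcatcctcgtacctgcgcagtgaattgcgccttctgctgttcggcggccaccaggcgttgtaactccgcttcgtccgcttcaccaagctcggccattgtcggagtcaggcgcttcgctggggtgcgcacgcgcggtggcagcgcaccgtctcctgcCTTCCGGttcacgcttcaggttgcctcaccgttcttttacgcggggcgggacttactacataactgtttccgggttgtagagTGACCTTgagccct
Ndufs3, chr2:90904672-90904971, minus strand: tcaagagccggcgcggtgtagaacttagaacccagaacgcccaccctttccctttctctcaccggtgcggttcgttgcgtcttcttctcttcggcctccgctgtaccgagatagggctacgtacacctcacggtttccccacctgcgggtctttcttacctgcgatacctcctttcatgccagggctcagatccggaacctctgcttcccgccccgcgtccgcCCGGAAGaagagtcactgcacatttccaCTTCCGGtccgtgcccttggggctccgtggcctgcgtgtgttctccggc
Ndufb6, chr4:40279372-40279671, minus strand: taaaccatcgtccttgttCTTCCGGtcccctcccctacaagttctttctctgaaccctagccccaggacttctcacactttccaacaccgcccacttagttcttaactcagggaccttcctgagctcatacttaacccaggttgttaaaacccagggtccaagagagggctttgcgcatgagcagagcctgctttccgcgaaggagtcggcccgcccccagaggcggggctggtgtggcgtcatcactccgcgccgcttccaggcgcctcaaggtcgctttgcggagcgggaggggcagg
Atp5g2, chr15:102670998-102671297, minus strand: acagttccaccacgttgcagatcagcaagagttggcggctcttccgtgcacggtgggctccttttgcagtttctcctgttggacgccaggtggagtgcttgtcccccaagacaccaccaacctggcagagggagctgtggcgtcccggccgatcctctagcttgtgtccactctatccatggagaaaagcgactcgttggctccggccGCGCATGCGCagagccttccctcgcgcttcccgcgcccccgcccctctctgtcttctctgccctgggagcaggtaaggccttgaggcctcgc
Ndufaf5, chr2:140170396-140170695, plus strand: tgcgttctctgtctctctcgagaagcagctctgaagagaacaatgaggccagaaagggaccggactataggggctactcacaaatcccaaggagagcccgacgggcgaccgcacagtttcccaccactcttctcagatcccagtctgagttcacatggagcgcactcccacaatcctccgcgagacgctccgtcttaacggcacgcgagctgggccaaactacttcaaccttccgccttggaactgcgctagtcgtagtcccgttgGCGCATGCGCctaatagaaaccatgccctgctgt
The 4 motifs, searched on both strands, were CCGGAAG (the ETS core bound by GABP, also called NRF-2), GCATGCGC (a core of the NRF1 site), AAGGTCA (the half-site of estrogen-related receptors) and AAGATGGC (the YY1 core). Sdhd holds an ETS core and a receptor half-site, Ndufs3 a pair of ETS cores in opposite orientation, and Ndufb6 a single ETS core. In Atp5g2 and Ndufaf5 the capitals are overlapping NRF1 matches on both strands, since the core is nearly its own reverse complement. An ETS core that ends in AAG can also share bases with a YY1 core.

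Of the 83 genes, 68 had such a window. The NRF1 core lay in 12 of them (17.6%), against 4.29% of the 15561 array genes with a window, and the YY1 core in 10 (14.7%), against 3.77%. The ETS core lay in 16 (23.5%), against 13.6%, and the receptor half-site in 7 (10.3%), against 4.48%. At least 1 of the 4 lay in 36 (52.9%), against 23.5% of all array genes. Among the genes that fell in Nkx2-5+/- hearts the share was 45.5% (5 of 11 with a window), and among the remaining respiratory chain genes it was 54.4% (31 of 57). A match describes these letters only, and no difference between these shares was tested.

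A number of respiratory chain genes from every complex fell in Nkx2-5+/- hearts compared with wild-type hearts. The median log2 fold change of the 83 genes was -0.25, against -0.01 over all genes, and 75 of the 83 lay below 0, against 52.4% of all genes. By limma with Benjamini-Hochberg adjustment over all genes, 15 fell and 0 rose at an adjusted p under 0.05. Over all genes 5.16% fell and 2.72% rose in this comparison. At an unadjusted p under 0.05, 41 were lower and 1 was higher, together 42 of 83, against 22.3% of all genes. Groups overlapped for most of them: in 2, Ndufa4l2 and Ndufv3, every Nkx2-5+/- array lay below every wild-type array, against 1.43% of all genes.

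**Figure D1:**
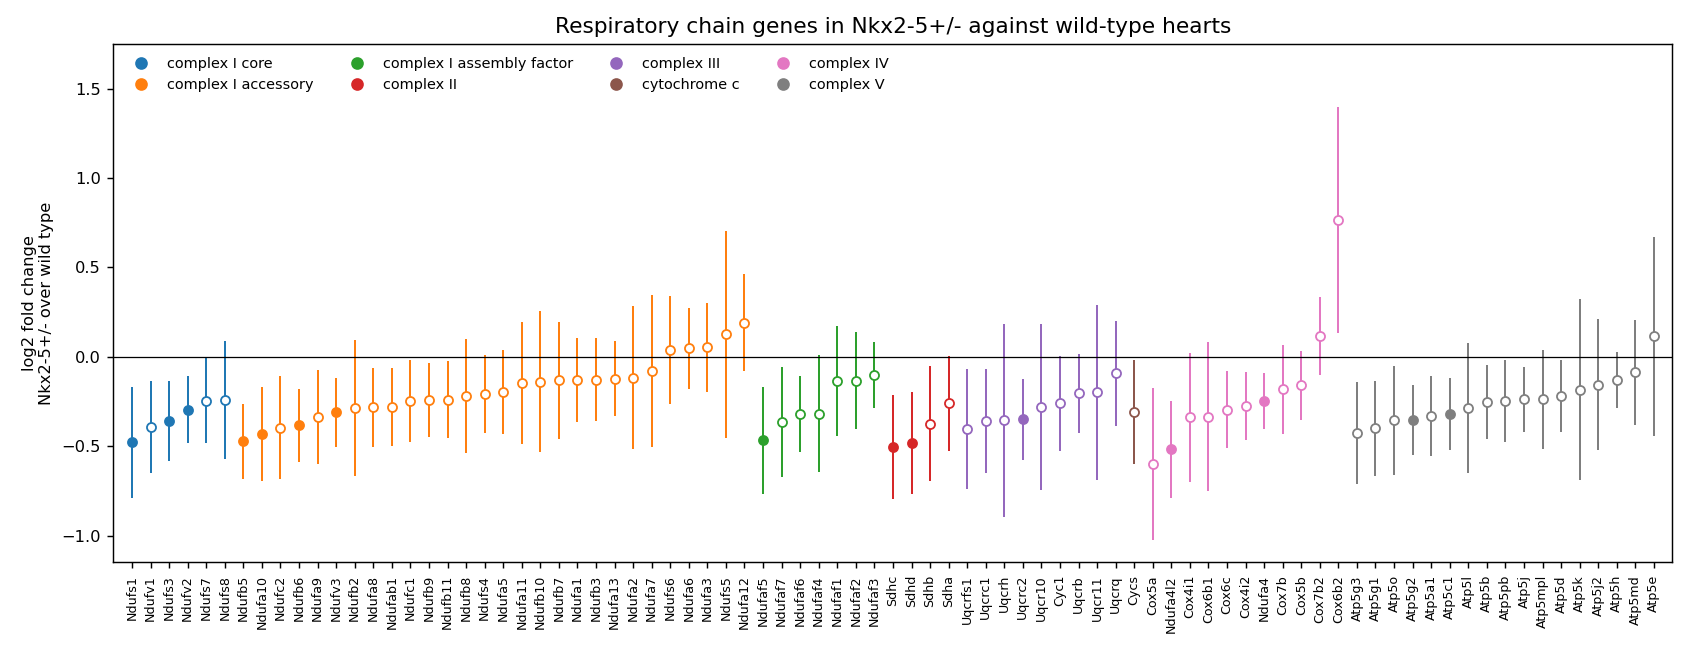
Log2 fold change, Nkx2-5+/- over wild type, of each of the 83 genes, ordered by complex, with 95% confidence intervals from limma; filled points passed an adjusted p under 0.05. All 15 filled points lie below 0, and Cox6b2 stands highest at 0.76 with an open point.

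Without the pair of arrays that went against their labels the median was -0.33, and 42 of the genes fell and 1, Cox6b2, rose, against 15.2% and 6.56% of all genes. In the array labelled Nkx2-5+/- replicate 3, 51 of the 83 genes had their highest value within the group, against 36.5% of all genes, and so did 13 of the 15 that fell. The count of calls depended on single arrays: it was 44 without that array, 6 without Nkx2-5+/- replicate 1, 0 without replicate 2 and 0 without replicate 4. Among wild-type arrays it was 3 without replicate 1, 1 without replicate 4 and 3 without replicate 5. With only the Nkx2-5+/- and wild-type arrays in the fit, the count was 0.

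Markers of heart muscle and of red blood cells moved with the same arrays. Over 26 sarcomere genes the mean signal was 10.62, 10.45, 11.45 and 10.50 on Nkx2-5+/- replicates 1 to 4, against 11.04 to 11.55 in wild type, and 16 of the 26 fell. Over 15 red blood cell genes other than globins it was 11.13, 11.16, 9.09 and 11.00, against 8.65 to 10.23 in wild type, and 5 of the 15 rose. With the sarcomere mean as a covariate the median of the respiratory chain genes was -0.04, and with the red blood cell mean it was -0.12, and 0 genes were called under either. What part these lists play in the result was not tested.

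**Figure D2:**
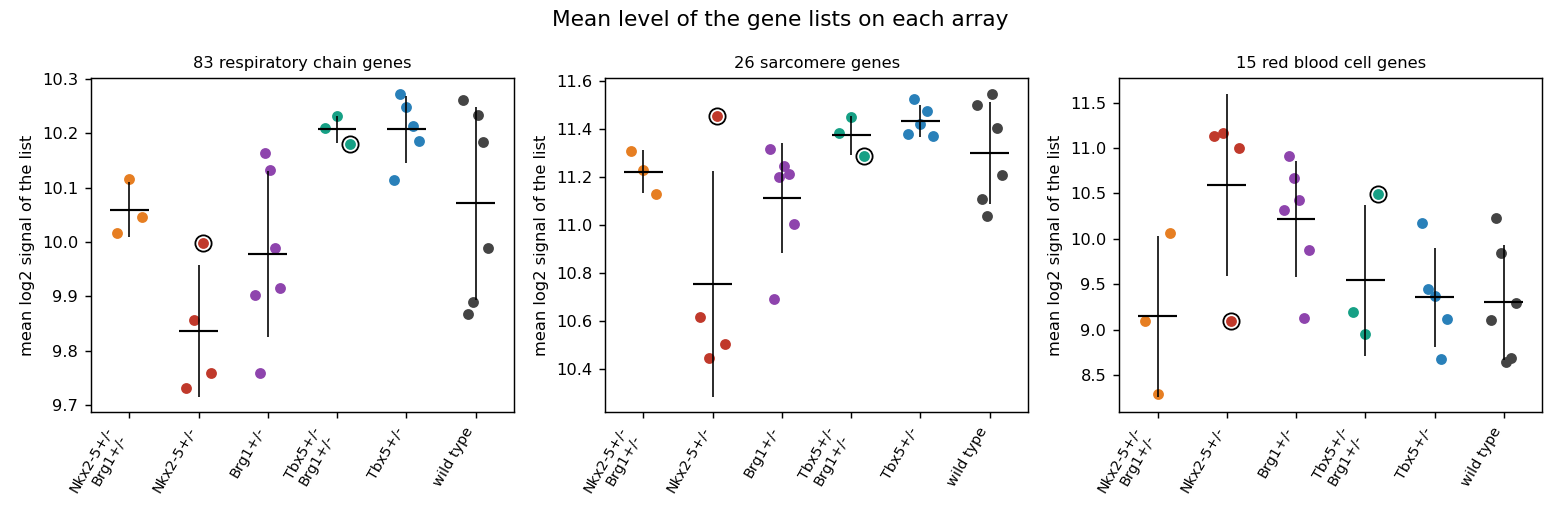
Mean log2 signal over the 83 respiratory chain genes, 26 sarcomere genes and 15 red blood cell genes on each array, by group; bars give mean ± SD, and black rings mark the pair of arrays that went against their labels. The ringed Nkx2-5+/- array is the highest of its group for respiratory chain and sarcomere genes (9.998 and 11.45) and the lowest for red blood cell genes (9.09).

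Complex I, the NADH dehydrogenase, had 7 of its 34 subunits lower. Of the 6 core subunits, which carry the flavin and iron-sulfur centres, 3 fell. Ndufs1, the largest iron-sulfur subunit, was at 10.59, 10.24, 11.03 and 10.03 in Nkx2-5+/- hearts, against a lowest, median and highest value of 10.55, 11.00 and 11.23 in wild type. Only replicate 3 reached the wild-type median, and the log2 fold change was -0.48 ± 0.15 (SE; limma adjusted p = 0.0489). Ndufs3 (-0.36, adjusted p = 0.0418) and Ndufv2 (-0.30, adjusted p = 0.0435) also fell by limma; these 3 genes fall outside the naming rule and were named after their values were seen.

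Of the 28 accessory subunits, which surround the core without carrying electrons, 4 fell, and the median was -0.20. Ndufb5, a membrane-arm subunit, had the smallest p of all 83 genes. Its signal was 10.38, 10.29, 10.79 and 10.08 in Nkx2-5+/- hearts, against 10.72, 10.84 and 11.04 (lowest, median, highest) in wild type. Replicates 1, 2 and 4 lay below every wild-type array, and the log2 fold change was -0.47 ± 0.10 (limma adjusted p = 0.01). Ndufb6 (-0.38, adjusted p = 0.0215), Ndufa10 (-0.43, adjusted p = 0.0367) and Ndufv3 (-0.31, adjusted p = 0.0409) fell as well by limma. Ndufv3, a subunit of the flavin-containing end, was at 8.23, 7.95, 8.27 and 8.12, all below the lowest wild-type value of 8.28. The fit without the pair of arrays called 10 of the 28 accessory and 4 of the 6 core subunits lower.

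Among the 7 assembly factors, which help put complex I together and are not part of it, 1 fell. Ndufaf5, a hydroxylase that modifies the core subunit Ndufs7, was at 5.81, 6.14, 6.84 and 5.71 in Nkx2-5+/- hearts, against 6.33, 6.62 and 6.79 in wild type. Replicate 3 lay above all wild-type arrays and the others below all of them. The log2 fold change was -0.47 ± 0.15 (limma adjusted p = 0.0471), and it was -0.70 (adjusted p = 0.000129) without the pair of arrays. In that setting 5 of the 7 assembly factors fell. Ndufaf5 was dim, with a mean signal of 6.47 over all arrays, near the array medians.

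Complex II, succinate dehydrogenase, links the citrate cycle to the chain and is the only complex with no mitochondrially encoded subunit. Both membrane anchors fell. Sdhc was at 9.97, 10.14, 10.56 and 9.88 in Nkx2-5+/- hearts, against 10.31, 10.66 and 10.89 in wild type (-0.50 ± 0.14, limma adjusted p = 0.03). Sdhd was at 10.31, 10.26, 10.92 and 10.09, against 10.51, 10.88 and 11.27 (-0.48 ± 0.14, limma adjusted p = 0.032). For both, replicate 3 alone lay within the wild-type range. The catalytic subunits, the flavoprotein Sdha (-0.26, limma adjusted p = 0.236) and the iron-sulfur protein Sdhb (-0.37, limma adjusted p = 0.146), did not pass. Without the pair of arrays all 4 fell, Sdha by 0.47 (limma adjusted p = 0.00126) and Sdhb by 0.51 (limma adjusted p = 0.0263).

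In complex III 1 of 9 genes fell. Uqcrc2, a core protein of the complex, was at 11.69, 11.46, 12.06 and 11.30 in Nkx2-5+/- hearts, against 11.78, 12.02 and 12.18 in wild type (-0.35 ± 0.11, limma adjusted p = 0.047). Replicate 3 was again the only array inside the wild-type range. Cytochrome c1, encoded by Cyc1, had -0.26 (limma adjusted p = 0.239), and the mobile carrier Cycs had -0.31 (limma adjusted p = 0.191). When the pair of arrays was left out 5 of the 9 fell, and Cyc1 had -0.41 (limma adjusted p = 0.0183) and Cycs -0.45 (limma adjusted p = 0.0238).

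Complex IV, cytochrome c oxidase, had 2 of 11 genes lower. Ndufa4, once assigned to complex I and now counted with complex IV, was at 12.20, 11.97, 12.25 and 11.97 in Nkx2-5+/- hearts, against 12.24, 12.33 and 12.48 in wild type (-0.25 ± 0.08, limma adjusted p = 0.0425). Its paralogue Ndufa4l2, known as a hypoxia-induced gene, was at 6.25, 6.05, 6.25 and 6.10, against 6.27, 6.75 and 7.13 (-0.52 ± 0.13, limma adjusted p = 0.0189). The Ndufa4l2 groups do not overlap, with 6.25 against 6.27 at the nearest, and the value was -0.55 without the pair of arrays. Ndufa4l2 was dim, with a mean signal of 6.51 over all arrays, near the array medians of 6.181 to 6.328.

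With all arrays the paralogue pairs of complex IV otherwise gave no call. Cox5a, a subunit on the matrix side, had -0.60 (95% interval -1.03 to -0.18, limma adjusted p = 0.0698), and Cox5b had -0.16 (-0.35 to 0.03, limma adjusted p = 0.336). The widespread form Cox4i1 had -0.34 (limma adjusted p = 0.265), and Cox4i2, an oxygen-responsive form, -0.27 (limma adjusted p = 0.0668). Cox4i2 was dim, with a mean signal of 6.56 over all arrays. Cox6b1 had -0.33 (limma adjusted p = 0.356), Cox7b -0.18 (limma adjusted p = 0.421), and Cox7b2, a testis form with a mean signal of 3.88 over all arrays, 0.12 (limma adjusted p = 0.574). Leaving out the pair of arrays, 5 of the 11 genes fell and Cox6b2 rose. Those that fell include Cox5a (-0.73, limma adjusted p = 0.0188), Cox5b (-0.26, limma adjusted p = 0.045) and Cox4i2 (-0.37, limma adjusted p = 0.0038), while Cox4i1, Cox6b1, Cox7b and Cox7b2 were not called in that setting either.

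Cox6b2, the testis form of the subunit that helps dimerise the complex, ran the other way. It was at 8.62, 8.71, 6.68 and 8.56 in Nkx2-5+/- hearts, against 7.18, 7.42 and 7.50 (lowest, median, highest) in wild type. Replicates 1, 2 and 4 lay above every wild-type array and replicate 3 below all of them. Over all arrays the log2 fold change was 0.76 ± 0.31 (limma adjusted p = 0.127), and without the pair of arrays it was 1.25 (limma adjusted p = 0.000674). Cox6b2 was also the most variable of the 83 genes between arrays of a group, with a residual SD of 0.54. In Brg1+/- hearts it was at 7.72, 7.84, 8.62, 8.41, 6.86 and 7.36, where the red blood cell mean was 10.31, 10.92, 10.67, 10.43, 9.13 and 9.88. The lowest of these Cox6b2 values and the lowest red blood cell mean fall on the same array, as they do in Nkx2-5+/- hearts. In Brg1+/- hearts the highest values, 8.62 and 10.92, fell on different arrays. In wild type the red blood cell mean ran from 8.65 to 10.23, with Cox6b2 at 7.18 to 7.50. The part of these cells in the Cox6b2 signal was not tested.

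In complex V, the ATP synthase, 2 of 17 genes fell. Atp5c1, the gamma subunit of the central stalk, was at 12.48, 12.13, 12.65 and 12.16 in Nkx2-5+/- hearts, against 12.46, 12.71 and 12.80 in wild type (-0.32 ± 0.10, limma adjusted p = 0.0437). The Atp5g genes encode the same mature c subunit of the membrane ring. Atp5g2 was at 11.38, 11.24, 11.57 and 11.09, against 11.37, 11.73 and 11.81 (-0.35 ± 0.10, limma adjusted p = 0.0258). Atp5g1 (-0.40, limma adjusted p = 0.0549) and Atp5g3 (-0.42, limma adjusted p = 0.0556) did not pass with all arrays. In the fit without the pair of arrays 8 of the 17 genes fell, Atp5g1 by 0.48 (limma adjusted p = 0.0138) and Atp5g3 by 0.53 (limma adjusted p = 0.00916). Other probe sets of Atp5g2 gave -0.35 and -0.34, and the second Atp5g1 probe set gave -0.36.

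**Figure D3:**
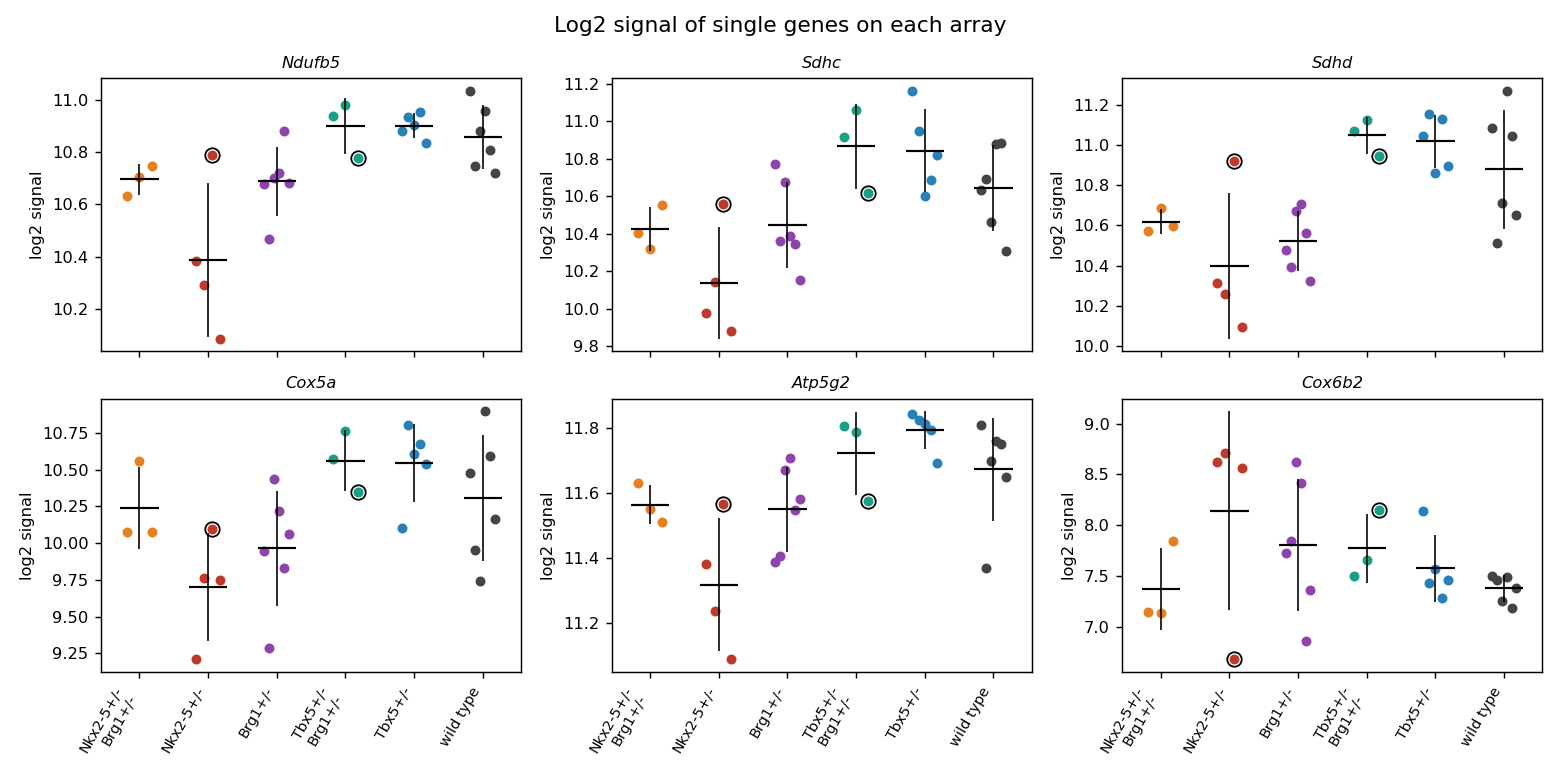
Log2 signal of Ndufb5, Sdhc, Sdhd, Cox5a, Atp5g2 and Cox6b2 on each array, by group; bars give mean ± SD, and black rings mark the pair of arrays that went against their labels. The ringed Nkx2-5+/- array is the highest of its group for the first 5 genes and the lowest for Cox6b2 (6.68).

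Some genes that work next to the chain fell as well. Of 16 genes of the citrate cycle and pyruvate dehydrogenase, 9 fell, with a median of -0.42; Suclg1, a subunit of succinyl-CoA ligase, fell by 0.59 (limma adjusted p = 0.0156). Of 12 carriers and shuttles of the mitochondrial membranes, 6 fell, with a median of -0.39; Vdac1, the main outer-membrane channel, fell by 0.59 (limma adjusted p = 0.00958). Of 8 tissue isoforms of complex IV that the symbol rule leaves out, 3 fell: the muscle forms Cox7a1 (-0.62, limma adjusted p = 0.00635), Cox6a2 (-0.83, limma adjusted p = 0.0073) and Cox8b (-1.18, limma adjusted p = 0.0348). These muscle forms had larger log2 fold changes than any of the 15 genes that fell, with no test of that difference.

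Of 77 mitochondrial ribosome genes 5 fell, with a median of -0.18, and of 33 further assembly factors 2 fell, with a median of -0.19, where 5.16% of all genes fell. Of 17 regulators of mitochondrial genes 2 fell and 1 rose. Ppargc1a, a coactivator of mitochondrial biogenesis, fell by 0.71 (limma adjusted p = 0.019) and Esrrb, an estrogen-related receptor, by 0.70 (limma adjusted p = 0.00371). Nrf1, whose product binds the NRF1 core, rose by 0.40 (limma adjusted p = 0.0485).

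Lists for other cell types gave medians of -0.26 (10 endothelial genes, 0 called), -0.21 (10 cushion mesenchyme genes, 0 called), -0.38 (8 epicardial genes, 3 lower), -0.24 (8 macrophage and leukocyte genes, 2 lower) and -0.53 (8 liver genes, 0 called).

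The heterozygous loss of both Nkx2-5 and Brg1 was set against that of Nkx2-5 alone. The members' mean was 10.02 to 10.12 on the 3 Nkx2-5+/- Brg1+/- arrays, against 9.73 to 9.998 on the 4 Nkx2-5+/- arrays. The median log2 fold change of the 83 genes was 0.22, against 0.02 over all genes, and 9 of 83 lay below 0, against 46.6% of all genes. By limma 0 of 83 were called, against 0.0401% of all genes, and at an unadjusted p under 0.05, 22 were higher and 1 was lower, against 15.4% of all genes in either direction. Ndufab1, the mitochondrial acyl carrier protein that also sits in complex I, came nearest. It was at 9.86, 10.16 and 9.82 in Nkx2-5+/- Brg1+/- hearts, against 9.30, 9.60, 9.68 and 9.48 in Nkx2-5+/- hearts (0.43 ± 0.12, limma adjusted p = 0.0858). The next by p were Ndufv2 (0.33), Cox7b (0.40), Ndufa4 (0.24) and Ndufb6 (0.32), with limma adjusted p from 0.114 to 0.167.

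Without the pair of arrays the median was 0.31, and 11 of the genes rose and 1 fell, against 7.06% and 4.79% of all genes. The 11 include Ndufb5 (0.44), Sdhb (0.63), Uqcrc2 (0.36) and Ndufab1 (0.49), and the one that fell was Cox6b2 (-1.26, limma adjusted p = 0.00543). With the sarcomere mean as covariate the median was 0.04, and with the red blood cell mean 0.09. These contrasts share the Nkx2-5+/- arrays with the comparison against wild type, so the same arrays enter both.

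Nkx2-5+/- Brg1+/- against wild-type hearts gave a median of -0.05 with 48 of 83 below 0, against 54% of all genes. By limma 0 were called, against 0.0351% of all genes; at an unadjusted p under 0.05, 7 were lower and 1 was higher, against 7.39% in either direction. The smallest p belonged to Uqcrc1, a core protein of complex III (-0.43 ± 0.16, limma adjusted p = 0.565), and Ndufs1 (-0.44 ± 0.17, limma adjusted p = 0.583). Ndufs1 was at 10.61, 10.39 and 10.53 in Nkx2-5+/- Brg1+/- hearts, below the wild-type median of 11.00 in each.

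The interaction of Nkx2-5 with Brg1, the effect of Brg1 loss in Nkx2-5+/- hearts minus its effect in hearts with both Nkx2-5 copies, had a median of 0.35 over the 83 genes, against 0.03 over all genes. By limma 0 of 83 were called, against 4.95% of all genes, and at an unadjusted p under 0.05, 33 were higher and 1 was lower, against 20.2% in either direction. The smallest p were those of Atp5g3 (0.66 ± 0.21, limma adjusted p = 0.0598), Ndufb5 (0.48 ± 0.15, limma adjusted p = 0.0626) and Atp5o (0.67 ± 0.22, limma adjusted p = 0.0717). Without the pair of arrays 20 genes were higher and 1 was lower, against 10.8% and 5.53% of all genes; these include Sdhb, Sdhc and Sdhd and 4 of 7 assembly factors. In the fit with all arrays the muscle isoforms Cox7a1 (0.92, limma adjusted p = 0.0166) and Cox6a2 (0.89, limma adjusted p = 0.0382) were higher in the interaction, as were 4 of 26 sarcomere genes, and 13 of 15 red blood cell genes were lower. The median over the 83 genes was 0.14 with the red blood cell mean as covariate and 0.07 with the sarcomere mean.

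Brg1+/- against wild-type hearts gave a median of -0.10, against -0.02 over all genes, with 65 of 83 below 0, against 56.3% of all genes. By limma 0 were called, against 0.01% of all genes, and at an unadjusted p under 0.05, 6 were lower and 0 higher, against 9.71% in either direction. Sdhd was nearest, at 10.32 to 10.71 in Brg1+/- hearts, against 10.51 to 11.27 in wild type (-0.36 ± 0.12, limma adjusted p = 0.427). The ranges overlap. The median over the 83 genes was -0.03 with the red blood cell mean as covariate, -0.02 with the sarcomere mean and -0.06 without Brg1+/- replicate 2.

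In both Tbx5 groups the median lay above 0, with no gene called. Tbx5+/- hearts had a median log2 fold change of 0.12 against wild type, against 0.01 over all genes, with 6 of 83 below 0 against 48% of all genes. By limma 0 were called, as for 0% of all genes, and at an unadjusted p under 0.05, 6 were higher and 0 lower, against 3.95%. The smallest p were those of the assembly factor Ndufaf3 (0.23 ± 0.09) and of Ndufab1 (0.26 ± 0.10), both with a limma adjusted p of 1. Ndufab1 was at 9.98 to 10.16 in Tbx5+/- hearts, against 9.52 to 10.08 in wild type, so the groups overlap.

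Tbx5+/- Brg1+/- hearts also had a median of 0.12 against wild type, with 15 of 83 below 0; by limma 0 were called, against 0% of all genes, and at an unadjusted p under 0.05 there was 1, against 4.38% of all genes. Against Tbx5+/- hearts the median was -0.01 with 46 of 83 below 0; by limma 0 were called, against 0% of all genes, and 0 passed an unadjusted p under 0.05, against 2.48% of all genes. The Tbx5 by Brg1 interaction had a median of 0.08 with 22 below 0; by limma 0 were called, against 0% of all genes, and 0 passed an unadjusted p under 0.05, against 3.04%. Without the pair of arrays the medians were 0.15 against wild type and 0.01 against Tbx5+/-. On all arrays the mean over all genes was 6.612 in Tbx5+/- Brg1+/-, 6.604 in Tbx5+/- and 6.598 in wild-type hearts. Over the 83 genes it was 10.21, 10.21 and 10.07. Shares of all genes below 0 are not given for these comparisons, so the counts below 0 stand without that background. Intervals were wide for some genes: Ndufs5, an accessory subunit of complex I, had 0.48 in Tbx5+/- Brg1+/- over Tbx5+/- hearts (95% interval -0.18 to 1.13).

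**Figure D4:**
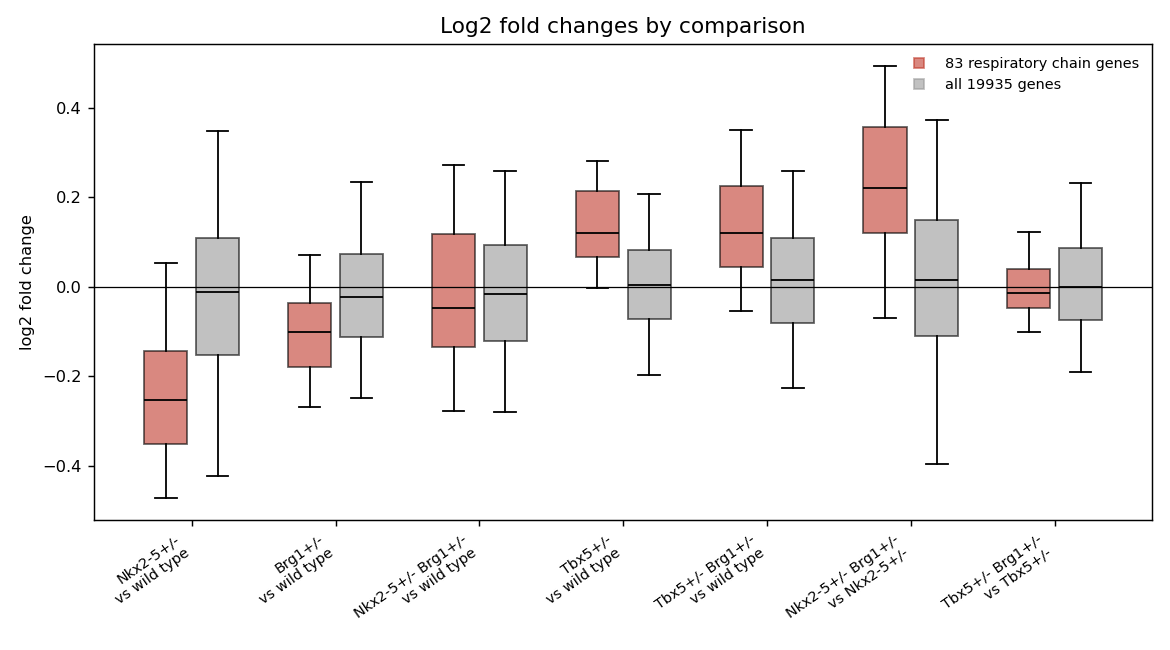
Log2 fold changes of the 83 respiratory chain genes (red) and all 19935 genes (grey) in the 7 comparisons between 2 groups, with the interactions not drawn; boxes span the quartiles with the median, and whiskers run from the 5th to the 95th percentile. The red medians run from -0.25 (Nkx2-5+/- against wild type) to 0.22 (Nkx2-5+/- Brg1+/- against Nkx2-5+/-), while the grey medians run from -0.02 to 0.02.

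Variation between arrays of one group was not even over the 83 genes. The residual SD had a median of 0.21 over them, against 0.19 over all genes. After Cox6b2 the most variable were Ndufs5, Atp5e, Uqcrh, Atp5k, Uqcr11 and Uqcr10, small subunits, named here after their values were seen.

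Several of these were low on the same arrays. Uqcrh, the hinge protein of complex III, was at 10.46 and 10.42 on Brg1+/- replicates 1 and 2 and between 11.07 and 11.67 on the other Brg1+/- arrays. In wild type it was at 10.48 and 10.81 on replicates 2 and 3 and between 11.60 and 11.82 on the rest. Atp5k, the e subunit of ATP synthase, was at 8.79 and 9.01 on those Brg1+/- arrays (9.37 to 10.11 on the others), and at 8.73 and 9.12 on those wild-type arrays (9.94 to 10.09 on the others). Uqcr11 ran likewise, at 8.55 and 8.47 in Brg1+/- and 8.50 and 8.78 in wild type, against highest values of 9.69 and 9.71 in these groups. The same 4 arrays thus held low values of these genes, from complexes III and V, in mutant and wild-type hearts alike. The genes were picked for their large spread, so far values on some arrays were assured. In the members' mean the 6 wild-type arrays spanned 9.87 to 10.26. The labels give no batch for these arrays, and the source of the shared low values was not tested.

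**Figure D5:**
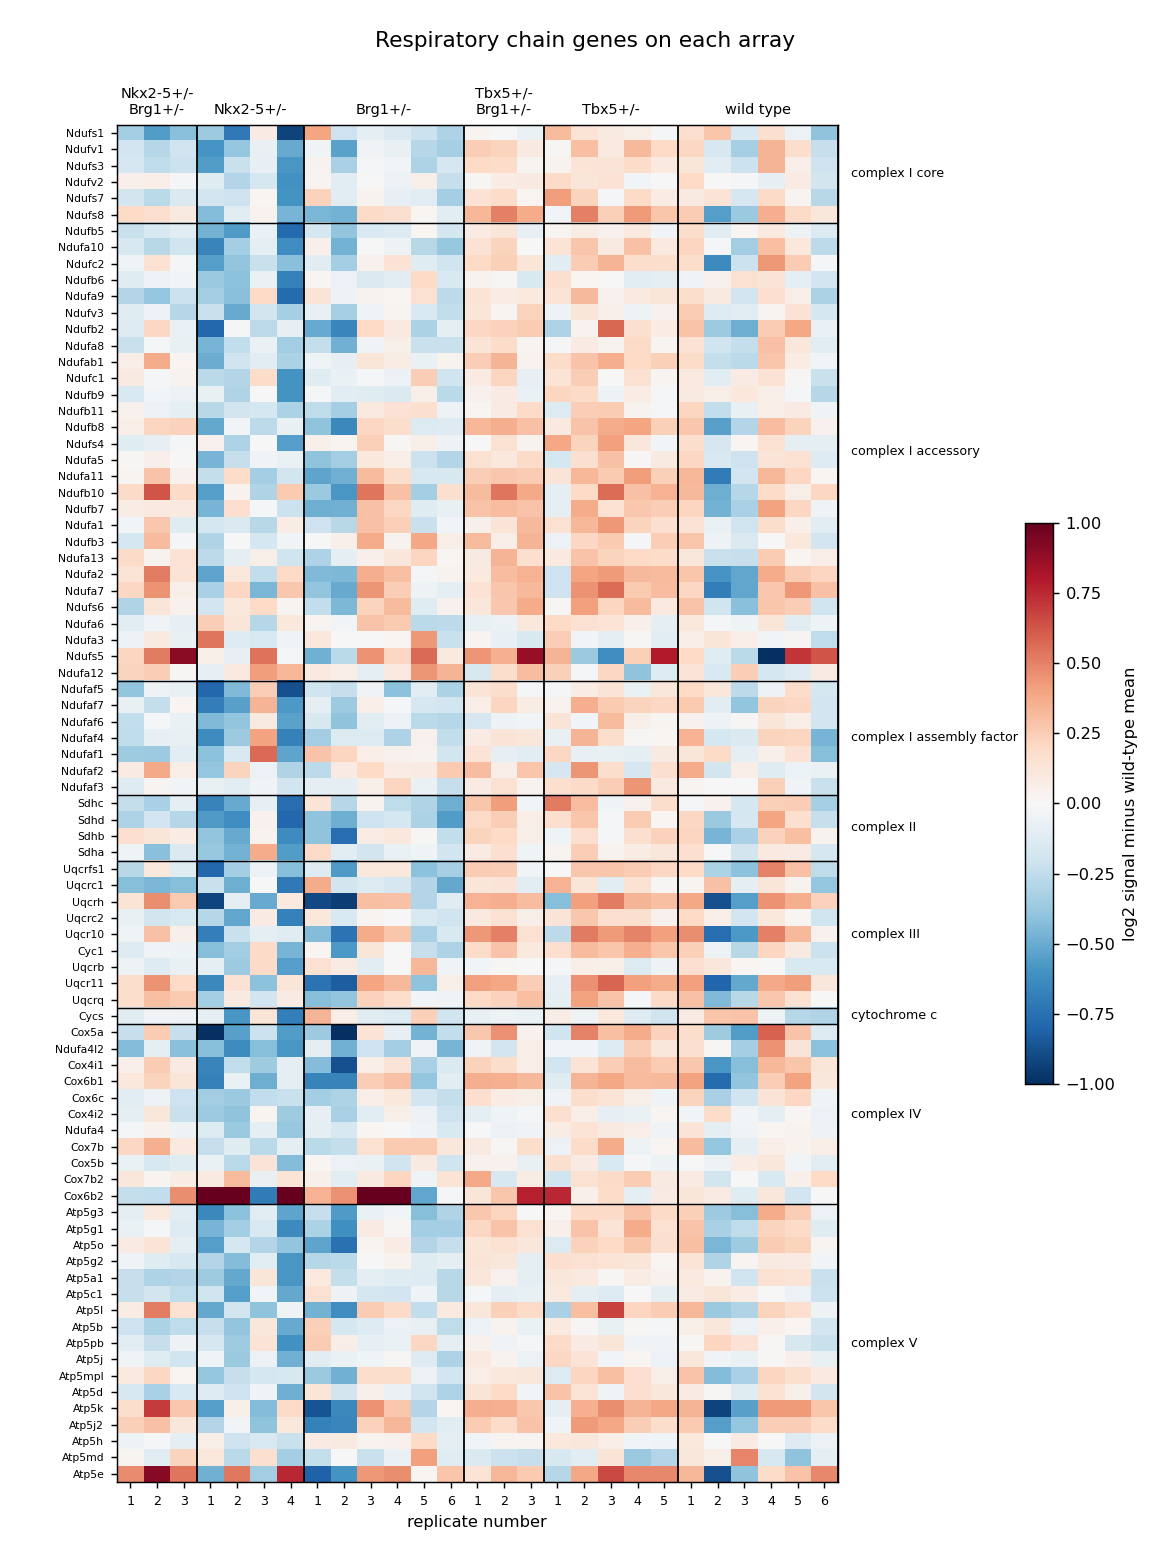
Log2 signal of each of the 83 genes on each of the 27 arrays, relative to that gene's wild-type mean (blue lower, red higher, colour ends at -1 and 1), with genes in rows by complex and arrays in columns by group. Nkx2-5+/- replicates 1, 2 and 4 are mostly blue, replicate 3 is paler, and rows such as Uqcrh and Atp5k are dark blue on Brg1+/- replicates 1 and 2 and wild-type replicates 2 and 3.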

How the data were processed

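Each sample was total RNA of hearts from mouse embryos (embryonic day 11.5), biotin-labelled and read on 1 Affymetrix array. The authors deposited log2 signals; the submitters' processing notes name Affymetrix Power Tools and RMA as their source, without versions. The annotation release and genome build are not given in the sources used here. The 28815 probe sets on 27 arrays were used as deposited. Those with 1 gene symbol (21780) were kept, and genes with several probe sets (998) were read at the one with the highest mean, which left 19935 genes. Of the 83 respiratory chain genes, 17 had several probe sets and all 83 matched RefSeq by gene identifier.

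The model (limma 3.58.1, R 4.3.3) gave every genotype group its own mean, used all 27 arrays and an untrended variance prior, and had 21 residual and 6.71 prior degrees of freedom. Its 9 contrasts were the mutant groups against wild type, both compound groups against their single transcription factor loss, and both interactions with Brg1. Two-sided p were adjusted by the Benjamini-Hochberg method over all genes and called at an adjusted p under 0.05. Since arrays give no counts, precision rests on each gene's spread and on how many arrays there are per group. The fit was tested on simulated data.

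The respiratory chain genes and the other lists were chosen with earlier results of these data known. Named genes are the targeted genes, complex II, Cyc1, Cycs and the paralogue sets, up to 4 called genes of each complex with the smallest p, or, where none was called, the 5 with the smallest p. Other lists give up to 3 called genes. Exceptions are said to be named after their values were seen. Alternatives covered normalization, dim genes, the variance prior, other probe sets, array weights, covariates, the replicate block, the arrays in the fit and leaving out each array. Promoter windows are RefSeq sequences of GRCm38.p6, used for motif description only. Plots were made in Python 3.11.15 (matplotlib 3.10.9).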

Additional observations from a re-analysis of the deposited data

Results flagged for a closer look

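Within groups of 4 to 6 arrays, 144 sets of values of named genes were tested for 1 value far from the others by Dixon's rule, which chance meets in about 1 in 20 groups, and 5 did. On the array labelled Nkx2-5+/- replicate 3, Cox6b2 was at 6.678 (8.558 to 8.712 on the other arrays of the group), Cox4i2 at 6.658 (6.232 to 6.278) and Nkx2-5 itself at 9.395 (8.475 to 8.631). On Tbx5+/- replicate 1, Cox6b1 was at 11.153 (11.593 to 11.664). On wild-type replicate 2, Atp5g2 was at 11.369 (11.648 to 11.809).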

How the results depend on the processing

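The 15 calls in Nkx2-5+/- against wild-type hearts, counted in either direction, became 6 with array medians equalised, 6 with all probe sets tested, 45 with array weights, 0 with either the red blood cell or the sarcomere mean as a covariate, 43 without the pair of arrays that went against their labels and 0 with the arrays of the compared groups alone. Leaving out single arrays gave 0 to 44. With array weights 7 genes were called in Nkx2-5+/- Brg1+/- against wild-type hearts and 19 in Nkx2-5+/- Brg1+/- against Nkx2-5+/- hearts. Against Nkx2-5+/- hearts the count was 12 without the pair of arrays and 0 to 12 when single arrays were left out, 12 without Nkx2-5+/- replicate 3. The Nkx2-5 by Brg1 interaction gave 2 after a further quantile normalization, 2 with the dimmest genes removed, 35 with array weights, 21 without the pair of arrays, and 0 to 21 when single arrays were left out, 21 without Nkx2-5+/- replicate 3. In the other comparisons every alternative run gave 0 calls. The cause of these shifts was not tested.

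With the sarcomere mean as a covariate, 4 named genes turned positive in Nkx2-5+/- against wild-type hearts: Sdha 0.126, Sdhb 0.0875, Cyc1 0.156 and Cox5b 0.00779. In Nkx2-5+/- Brg1+/- against Nkx2-5+/- hearts that covariate gave Sdha -0.272, Sdhd -0.143, Cyc1 -0.167, Cox5b -0.0970 and Ndufa4l2 -0.00734, and the red blood cell covariate gave Sdha -0.139, Sdhd -0.0455, Cyc1 -0.017, Cox5b -0.044 and Cox6b2 0.0690, each opposite in sign to the value without it. Leaving out single arrays there gave -0.0433 to 0.269 for Sdha, -0.0463 to 0.143 for Cox5b and -0.108 to 0.0207 for Cox7b2.

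Same-numbered arrays showed no common deviation in the median (55 pairs, median r 0.01, from -0.45 to 0.41), and 8 of 27 arrays correlated best with their own number. A pairing by replicate number was not detected, and this check cannot exclude one. The replicate block gave 14 called genes in Nkx2-5+/- against wild type, 12 of them shared with the 15, and 3 in the Nkx2-5 by Brg1 interaction, with no other count changed. Groups of 3 to 6 arrays limit what can be detected.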
